A study of Mus musculus with 10 samples.

Results

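The genes Id1, Id2, Id3, Smad6, Smad7, Skil, Ski and Tgif1 are early response genes of TGF-beta and bone morphogenetic protein (BMP) signalling. They were taken by symbol from a table of 17053 mouse genes, where they carry the Ensembl identifiers ENSMUSG00000042745 (Id1), ENSMUSG00000020644 (Id2), ENSMUSG00000007872 (Id3), ENSMUSG00000036867 (Smad6), ENSMUSG00000025880 (Smad7), ENSMUSG00000027660 (Skil), ENSMUSG00000029050 (Ski) and ENSMUSG00000047407 (Tgif1). All 8 were found, and all 8 were among the 12218 genes that passed a filter on low counts.

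TGF-beta and BMP ligands bind receptor kinases at the cell surface, which phosphorylate Smad proteins. The activated Smads join Smad4, enter the nucleus and bind DNA at target genes. Id1, Id2 and Id3 are direct targets of BMP-activated Smads and encode proteins that dimerise with E proteins and keep them off DNA. Smad6 and Smad7 encode inhibitory Smads that feed back on the receptors. Skil (SnoN), Ski and Tgif1 encode nuclear corepressors that bind activated Smads. In fibroblasts this pathway is known for driving matrix production and for setting the balance between growth and differentiation.

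The cells were NIH-3T3, an established line of mouse fibroblasts labelled as wild type, from which 10 RNA libraries were sequenced. The libraries form 5 groups, each with a replicate A and a replicate B. The first group was untreated, and the second received 800 µM uridine for 2 h. The other groups all received 800 µM 4-thiouridine (4sU), a uridine analogue that cells build into RNA, for 2 h. One of them was sequenced as extracted (called 4sU here). In the SLAM group the extracted RNA was treated with iodoacetamide (IAA), and in the TUC group with osmium tetroxide, so that labelled uridines are read as cytidines. No group received a TGF-beta or BMP ligand per the labels. The values thus describe the expression of these genes without an added ligand, and how labelling and chemistry move it.

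Gene counts summed to between 27094222 and 33785682 per library. All 9 fibroblast markers examined passed the filter, with a summed level of 17200 to 25620 CPM (counts scaled to a common library size). Epithelial markers summed to at most 0.332 CPM, endothelial ones to at most 1.07 CPM and muscle and fat markers to at most 0.0296 CPM. The leukocyte list summed to 7.62 to 15.6 CPM, from Cd68 (mean 9.21 CPM) and Csf1r (mean 1.58 CPM, 32 to 67 counts per library), while Ptprc reached at most 5 counts in a library. Whether A and B came from separate cultures is not given in the labels. The p-values therefore rest on the spread between libraries alone, and that spread may be technical.

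Upstream sequences were read for the Id genes that the RefSeq promoter table covers, because they are the members whose control by Smads is best known. Each window holds the 250 bases before the annotated start in the mouse assembly GRCm38.p6, written 5′ to 3′ on the gene's strand. Capitals mark matches to the Smad letters searched on both strands: the short element CAGAC, the palindrome GTCTAGAC and the GC-rich element GGCGCC, none of which contains another. The Id2 window lies at chr12:25096093-25096342 on the minus strand and the Id3 window at chr4:136143572-136143821 on the plus strand.
Id2: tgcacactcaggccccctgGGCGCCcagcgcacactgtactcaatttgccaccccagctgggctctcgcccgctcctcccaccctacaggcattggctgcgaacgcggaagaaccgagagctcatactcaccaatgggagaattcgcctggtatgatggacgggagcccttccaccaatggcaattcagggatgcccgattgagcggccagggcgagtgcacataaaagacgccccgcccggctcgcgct
Id3: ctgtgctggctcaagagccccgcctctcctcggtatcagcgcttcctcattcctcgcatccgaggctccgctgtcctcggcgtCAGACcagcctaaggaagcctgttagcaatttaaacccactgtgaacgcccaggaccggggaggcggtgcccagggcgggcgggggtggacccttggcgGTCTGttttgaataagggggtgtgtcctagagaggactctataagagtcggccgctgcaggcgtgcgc

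The Id3 window holds CAGAC at positions -167 to -163 and, on the other strand, at -68 to -64, counted back from the start. The Id2 window holds 1 GGCGCC, at -231 to -226. CAGAC occurred in 42.2% of 32851 windows of the same length, GGCGCC in 9.59% and GTCTAGAC in 0.167%. The single Ski window also holds 1 GGCGCC, at -220 to -215, the Smad6 window holds none of the searched Smad letters, and of 5 windows for Tgif1, for alternative starts, 3 hold CAGAC. Id1, Smad7 and Skil have no window shown. A match is a run of letters and not a measured binding site.

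The 8 genes were detected in every library, with Id3 highest and Smad6 lowest in each group. In bulk RNA, fewer expressing cells and less RNA per cell cannot be told apart. Levels of different genes were compared as CPM per kilobase of the deposited gene length. In untreated cells Id3 stood highest at 94.8 ± 4.62 (SD, n = 2) CPM per kilobase. Id1 followed at 47.5 ± 1.197 and Id2 at 40.3 ± 6.77. The corepressors came next, with Tgif1 at 30.3 ± 0.144 and Ski at 18.8 ± 1.98. Skil lay at 8.84 ± 1.11, Smad7 at 7.41 ± 0.138 and Smad6 at 2.32 ± 0.379 CPM per kilobase. The order Id1 over Id2 rested on a difference of 7.13, about the SD of Id2, and Skil over Smad7 on 1.43, against an SD of 1.11 for Skil. In the SLAM and TUC groups Smad7 stood above Skil, with library values of the pair overlapping in the TUC group and not in the SLAM group. Among the 12218 tested genes, mean CPM over all libraries placed Smad6 lowest of the 8, at percentile 23.7, and Id3 highest, at percentile 86.8, with Smad7 at 56.2 and the others between.

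For each gene the table gives a fraction, with the mode of a posterior and its 5 and 95% quantiles. It was read as NTR, the new-to-total RNA ratio: how much of the RNA of a gene had been made within the 2 h of labelling. After 2 h nearly all RNA of these genes was new. The median NTR over the 8 genes was 97.1% in the SLAM group and 97.6% in the TUC group, against medians over 10202 genes with a mean of 100 counts or more of 56.6 and 58.6%. NTR reached 90% or more for 7 of the 8 genes in each of the 4 converted libraries, against 18.2 to 22.0% of all genes. Ski was the exception.

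Among the Id genes, Id2 had the highest ratio. Its NTR was 100% in SLAM A, 98.1% in SLAM B, 99.2% in TUC A and 98.9% in TUC B. The mode in SLAM A lies at the end of the scale, just above its own 95% quantile of 99.98%, so only the 5% quantile of 99.1% bounds it there. Id3 stood at 99.8% in SLAM A and between 96.5 and 97.6% in the other converted libraries. Id1 had the lowest mean of the family in both groups, at 96.9% in SLAM A, 95.2% in SLAM B, 97.6% in TUC A and 94.96% in TUC B. The 5 to 95% intervals of Id1 and Id2 did not overlap in SLAM A, SLAM B or TUC B, and overlapped in TUC A.

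For the inhibitory Smads, Smad7 had an NTR of 97.7% in SLAM A, 94.5% in SLAM B, 99.6% in TUC A and 99.0% in TUC B. Both TUC libraries were above both SLAM libraries for this gene, by 1.85 ± 0.49 (SE) on the log2 odds scale. The difference had an unadjusted p of 0.0103 and did not pass adjustment (limma, adjusted p = 1, and 0.527 with the replicate letter as a block). Smad6, the member with the fewest reads (148 to 300 counts per library), had modes of 91.2 to 94.1% with wide intervals, from 85.8 to 94.9% in TUC B and from 87.1 to 97.9% in SLAM A.

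The corepressors spanned the range. Skil, at 99.8% in SLAM A, 98.7% in SLAM B, 99.2% in TUC A and 98.7% in TUC B, was the member with the highest mean in the SLAM group, at rank 210 of 10202 genes. Tgif1 lay between 96.9 and 98.7%. Ski was lowest in each converted library, at 81.3% in SLAM A, 88.1% in SLAM B, 83.7% in TUC A and 84.3% in TUC B, and its intervals (79.8 to 82.8% in SLAM A, for example) lay below those of Id1, Id2, Id3, Smad7, Skil and Tgif1 in each of these libraries. Ski and its relative Skil therefore stood apart by more than their intervals in each of the 4 libraries.

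**Figure D1:**
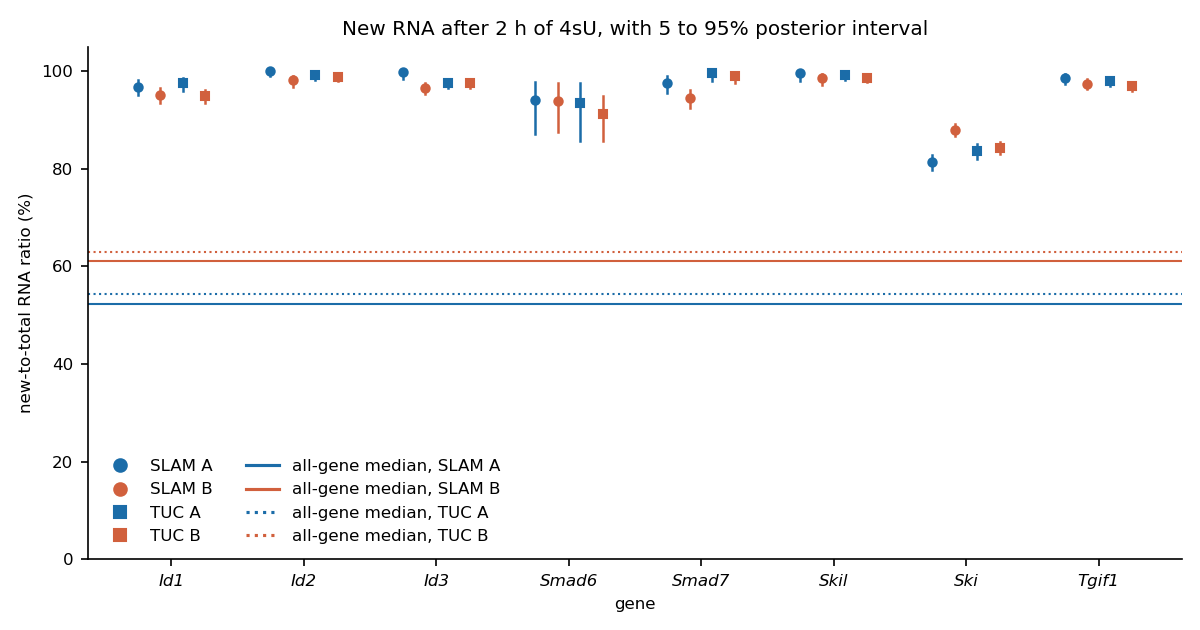
New-to-total RNA ratio (%) of each gene in the SLAM and TUC libraries; points are posterior modes, bars the 5 to 95% posterior interval, and horizontal lines the median over 10202 genes in each library. All members but Ski sit above 90%, and Ski sits between 81.3 and 88.1%, above the all-gene medians of 52.3 to 63.0%.

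If each gene's RNA was at steady state over the 2 h and decayed exponentially, with no correction for cell growth, NTR converts to a half-life. From the mean ratios, Skil had a half-life of 17.2 min in the SLAM group and 18.3 min in the TUC group, and Id2 of 17.8 and 17.9 min. Id3 gave 20.8 and 22.4 min, Tgif1 21.0 and 22.5 min, and Id1 25.8 and 25.3 min. For Id1 steady state is in doubt, because it read 67.1 and 67.3 CPM in the 4sU libraries against 56.0 and 54.1 in the untreated ones. Smad7 gave 25.6 min in SLAM and 16.9 min in TUC. Smad6 (29.6 and 32.4 min) and Ski (44.3 and 45.5 min) were the slowest. Small shifts of a ratio near the end of the scale move these values widely. Skil, for example, ran from 13.7 min in SLAM A to 19.3 min in SLAM B, and Id3 from 13.4 to 24.8 min, so the order among the 5 fastest members is not resolved.

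Multiplying CPM by 1 minus NTR estimates the RNA made before 4sU was added that was still present after the 2 h. Of the untreated level, 0.606% of Skil RNA remained as pre-existing RNA in the SLAM group and 1.04% in the TUC group, and 1.03 and 1.09% of Id2 RNA. Pre-existing Ski RNA amounted to 19.3 and 15.7 CPM in SLAM A and B and to 14.2 and 17.2 CPM in TUC A and B, which is 16.8 and 15.1% of its untreated level. Id1 kept 5.76 and 5.40%, and Smad6 7.27 and 7.79%. These shares use the posterior modes, which for Skil and Id2 lie near the end of the scale. In SLAM A, pre-existing Skil RNA was 0.0807 CPM at the mode and 0.666 CPM at the 5% quantile of NTR. For Id2 the same values were 0 and 0.760 CPM. The shares set converted libraries against untreated ones, so a change of level on conversion also enters them and was not separated from decay.

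The chemistries were next compared by NTR. Across all genes, limma called 0 of 10202 genes (0%) between TUC and SLAM, with 187 at an unadjusted p under 0.05, and 0 (0%) with the replicate letter as a block, with 929 unadjusted. None of the 8 members passed either fit. Without SLAM A, a fit of 3 libraries called Smad7 (adjusted p = 0.00451), but there the SLAM group is 1 library and holding NTR at no more than 0.99 brings the TUC values of Smad7 almost together, so this call has little spread behind it. The median over all genes was higher in B than in A (61.1 against 52.3% in SLAM), whereas the members' median, near the end of the scale, was lower in B (95.9 against 98.2%). Ski, the lowest member, was higher in B in SLAM (88.1 against 81.3%), and each other member was lower.

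A ratio is also estimated in libraries without chemical conversion, where it should be near 0. By the posterior mode it was higher with 4sU than with uridine for 7 of the 8 members, in the sense that both 4sU libraries exceeded both uridine libraries. The same held for 4600 of 10202 genes (45.1%), whose medians were 1.23% with uridine and 1.89% with 4sU. Smad7 had the highest value of the members in both 4sU libraries, at 7.11% in 4sU A and 5.76% in 4sU B, against 3.44 and 2.87% in uridine A and B. Id2 read 3.94 and 3.64% with 4sU against 2.21 and 1.93% with uridine, and Id3 3.60 and 3.20% against 1.59 and 1.80%. Skil read 2.77 and 1.75% against 1.10 and 0.57%. Smad6 was the exception, with 5.65% in 4sU A and 2.87% in 4sU B against 4.91 and 1.89%, and intervals up to 11.5%.

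**Figure D2:**
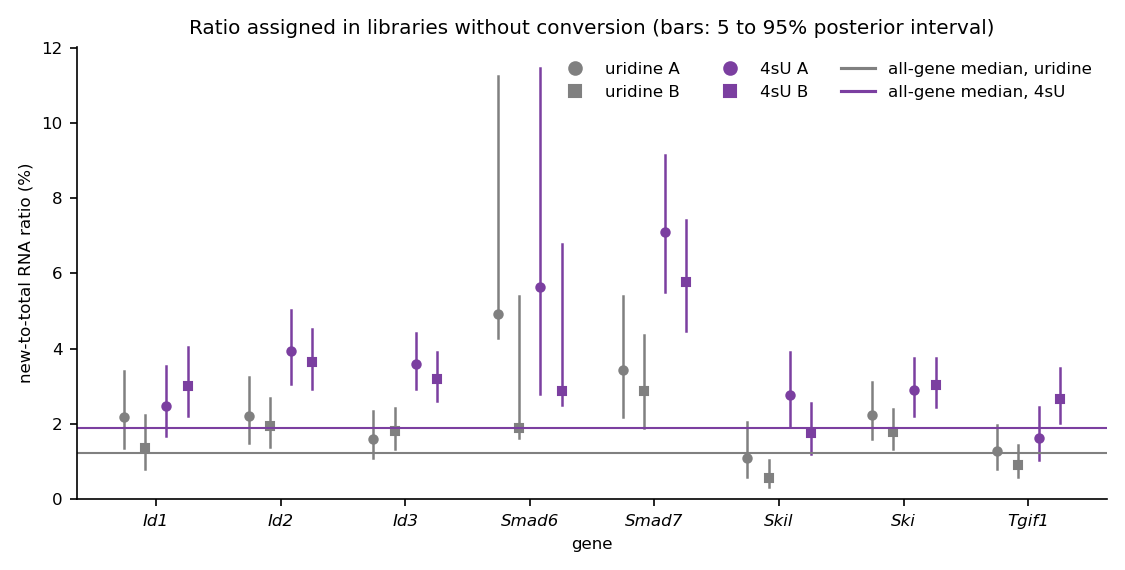
New-to-total RNA ratio (%) assigned to each gene in the uridine and 4sU libraries, which had no chemical conversion; points are posterior modes and bars the 5 to 95% posterior interval, with lines at the all-gene medians of 1.23 and 1.89%. For each gene but Smad6, both 4sU points lie above both uridine points, and Smad7 is highest in the 4sU libraries. The intervals of 4sU and uridine libraries separate fully for Id3 only.

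Counts were compared with edgeR's quasi-likelihood test over all genes, at an adjusted p (Benjamini-Hochberg) under 0.05. Replicates carried a shared offset by letter: Id2, Smad6, Smad7, Skil and Ski were higher in B than in A in all 5 groups, by up to 0.52 on the log2 scale (Smad6, uridine). Id1, Id3 and Tgif1 had no offset in 1 direction, being higher in B in 2, 3 and 4 of the 5 groups. A fit that leaves the letter out counts an offset as spread, and a fit that takes it in as a replicate block removes it. Both fits share their estimate of spread over all genes. That estimate (the common dispersion) was 0.0187 without the block and 0.00195 with it, so it also enters the SE of members without a steady offset. The fit without the block passed none of the 8 members in any of the 6 comparisons, so each difference below that passed did so with the block, and both fits are given.

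Uridine was given at the same dose and for the same time as 4sU. The log2 differences of the 8 genes from untreated cells lay between -0.07 (Id3) and 0.05 (Ski). No member passed either fit, and none had an unadjusted p under 0.05. The whole table gave 0 of 12218 genes (0%) without the block, with 46 at an unadjusted p under 0.05 and 0 by DESeq2, and 1 gene (0.00818%) with it.

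With 4sU, Id1 stood out. Its level was 56.0 CPM in untreated A and 54.1 in untreated B, 56.1 and 54.4 in uridine A and B, and 67.1 and 67.3 in 4sU A and B. Both 4sU libraries were above all libraries without 4sU, which lay between 54.1 and 56.1 CPM. Against untreated cells the log2 difference was 0.29 ± 0.095 (SE) without the block (edgeR, adjusted p = 0.35) and 0.29 ± 0.066 with it (adjusted p = 0.00562), or 22.2% higher. Against uridine it was 0.28 ± 0.066 with the block (adjusted p = 0.00653). The first of these lost its call without 4sU B (0.24, adjusted p = 0.125). The second did so without uridine A (0.27, adjusted p = 0.0837), uridine B (0.30, adjusted p = 0.0624) or 4sU B (0.24, adjusted p = 0.131).

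The other members did not pass in either comparison. Smad7 was 0.16 ± 0.065 higher than in untreated cells on the log2 scale with the block (adjusted p = 0.094), and Tgif1, at 87.1 and 92.2 CPM against 95.7 and 95.1, was 0.09 ± 0.054 lower (adjusted p = 0.256). Over all genes, 20 (0.164%) passed against untreated and 31 (0.254%) against uridine without the block, and 2432 (19.9%) and 2412 (19.7%) with it. One member of 8 in each comparison with the block is thus no more than the share of all genes. The median log2 difference from untreated was 0.08 over the 8 members and 0.008 over all genes.

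**Figure D3:**
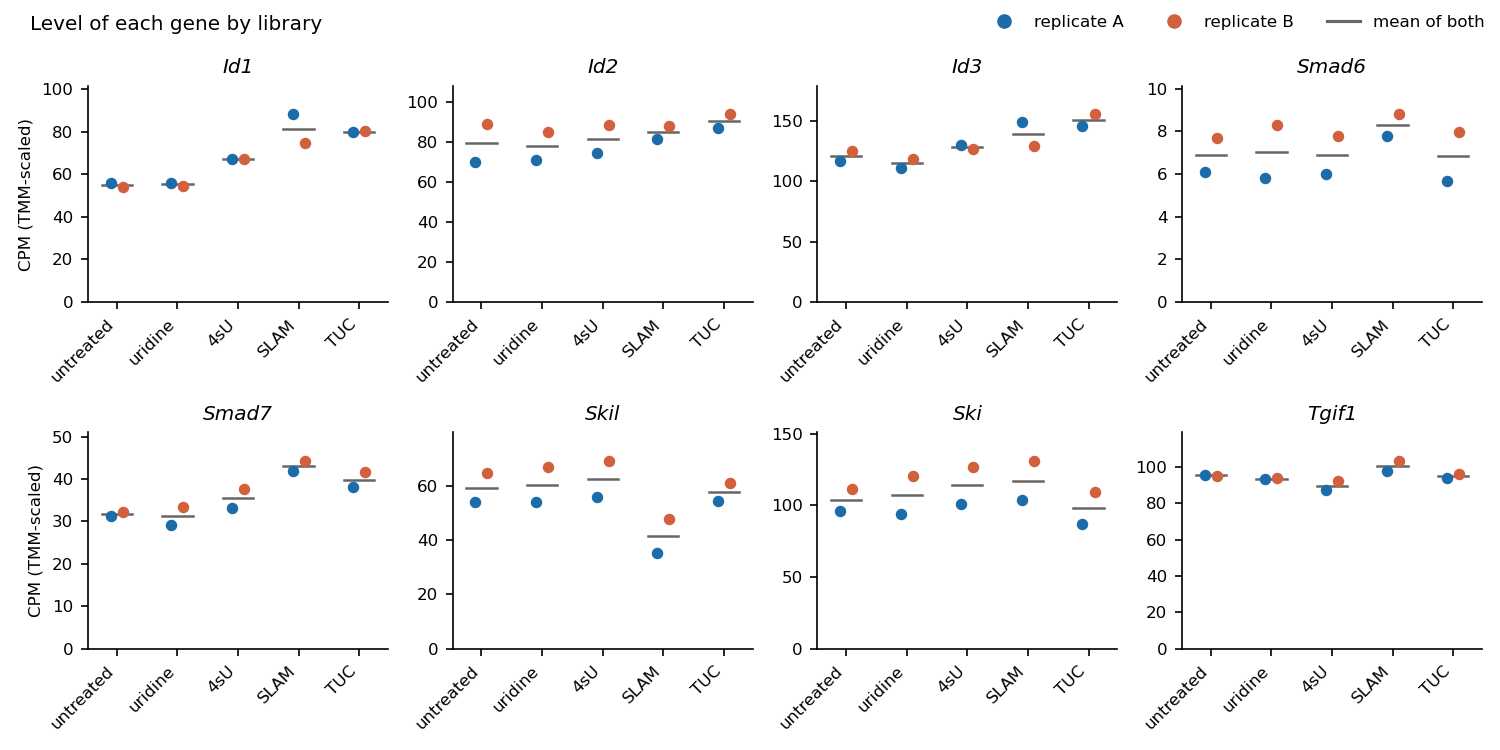
Level of each gene in CPM (linear axis from 0, scaled separately for each gene) in every library; points are replicates A and B and grey lines the mean of both. Id1 steps up from the untreated and uridine libraries to the 4sU libraries and again after conversion, and Skil drops to 35.1 and 47.7 CPM in the SLAM libraries, below all other libraries.

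After SLAM conversion Skil was lower than in unconverted 4sU libraries, while Id1, Smad7 and Tgif1 were higher. Skil read 55.9 CPM in 4sU A and 69.3 in 4sU B, and 35.1 in SLAM A and 47.7 in SLAM B. Both SLAM libraries were below all 8 other libraries, whose lowest value was 53.9 CPM. The log2 difference was -0.60 ± 0.189 (SE) without the block (edgeR, adjusted p = 0.16) and -0.60 ± 0.067 with it (adjusted p = 8.86e-06), so that it fell by 34.0%. Within letters it was -0.67 in A and -0.54 in B. It kept its call with the block when any of the 4 libraries was left out, at -0.51 to -0.70.

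Id1 and Smad7 moved the other way. Id1 rose from 67.1 and 67.3 CPM to 88.2 in SLAM A and 74.8 in SLAM B, by 0.27 ± 0.065 on the log2 scale with the block (adjusted p = 0.00307; 0.28 ± 0.094 and 0.18 without it). It fell short without 4sU A (0.24, adjusted p = 0.0586), and the rise without SLAM A was 0.17 against 0.38 without SLAM B. Smad7 rose from 33.2 and 37.7 to 41.9 and 44.3 CPM, by 0.28 ± 0.064 with the block (adjusted p = 0.0024; 0.214 without it), and kept its call when any library was left out. Its SLAM and 4sU libraries did not overlap.

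Tgif1 rose from 87.1 and 92.2 to 97.8 and 103.5 CPM, by 0.17 ± 0.054 with the block (adjusted p = 0.0196; 0.284 without it), and lost the call without 4sU A (adjusted p = 0.17), 4sU B (0.0756) or SLAM B (0.0602). Smad6 had a log2 difference of 0.27 ± 0.108 (adjusted p = 0.0544) and passed without SLAM B (0.41, adjusted p = 0.0151). Id2 (0.06 ± 0.064), Id3 (0.12 ± 0.068) and Ski (0.04 ± 0.054) did not pass, although Id3 passed without SLAM B (0.25, adjusted p = 0.00073) and stood at -0.02 without SLAM A. In all, 3 members were higher and 1 lower with the block, against 5079 of all genes (41.6%), 2443 of them higher and 2636 lower. Without the block 42 genes passed (0.344%), and none of the members, of which Id1, Smad7 and Skil had an unadjusted p under 0.05.

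The members were also set beside other genes with mostly new RNA, a grouping chosen after the value of Skil was seen. Among 1995 genes with a mean NTR of 90% or more in the SLAM group, the median log2 difference between SLAM and 4sU was -0.16 with the block, against 0.001 over all genes, and 41.4% passed as lower. A further 10.1% passed as higher. Skil lay at percentile 4.4 of these genes. Smad7 lay at percentile 93.7, Id1 at 93.4, Smad6 at 93.2, Tgif1 at 86.8, Id3 at 83 and Id2 at 76.7. Ski, with a mean NTR of 84.7% in the SLAM group, is not one of these genes. Its difference would lie at their percentile 75.4. Between TUC and 4sU the median of the same genes was -0.10, 26.2% passed as lower and 2.76% as higher. There Skil lay at percentile 48, and the difference of Ski, from outside the set, would lie lowest of the members, at 27.3.

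After TUC conversion Id1 and Id3 were higher and Ski was lower than in unconverted 4sU libraries. Skil read 54.5 CPM in TUC A and 61.2 in TUC B, and its log2 difference from 4sU was -0.11 ± 0.066 with the block (adjusted p = 0.239). Id1, at 79.8 and 80.1 CPM, was 0.25 ± 0.065 higher than in 4sU libraries with the block (adjusted p = 0.0115; 0.704 without it). Id3, at 145.9 and 155.6 CPM against 130.2 and 127.0, was 0.23 ± 0.068 higher (adjusted p = 0.0219; 0.704 without it). Ski was the member that fell, from 100.8 and 127.1 CPM to 87.1 and 109.2, by 0.22 ± 0.055 (adjusted p = 0.0105; 0.765 without the block). The Ski libraries of the 2 groups overlapped, and the fall is seen within letters, at -0.21 in A and -0.22 in B.

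These calls were fragile. Without any 1 of the 4 libraries, Id3 and Ski lost theirs (adjusted p of 0.064 to 0.24 for Id3, 0.172 to 0.273 in log2 difference, and of 0.075 to 0.108 for Ski, at -0.20 to -0.23). Id1 kept its call without TUC A (0.29, adjusted p = 0.0446) and lost it without 4sU A (0.21, adjusted p = 0.151), 4sU B (0.30, adjusted p = 0.0514) or TUC B (0.20, adjusted p = 0.155). With the block 2 members were higher and 1 lower, against 3151 of all genes (25.8%). Without it no member and 0 of 12218 genes (0%) passed in edgeR, with 846 at an unadjusted p under 0.05 and 16 genes by DESeq2.

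Set directly against each other, the chemistries differed in the sister corepressors, in opposite directions. Skil was higher after TUC than after SLAM by 0.49 ± 0.068 on the log2 scale with the block (edgeR, adjusted p = 0.000181; 0.48 ± 0.189 and 0.459 without it), or 40.5%. Its TUC libraries (54.5 and 61.2 CPM) did not overlap its SLAM libraries (35.1 and 47.7 CPM), and the call held without any 1 of them, at 0.39 to 0.59. Ski was lower after TUC, by -0.26 ± 0.055 with the block (adjusted p = 0.00369; 0.779 without it), at 87.1 and 109.2 CPM against 103.5 in SLAM A and 131.2 in SLAM B. Ski lost its call without TUC A (-0.26, adjusted p = 0.0515).

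The Id genes and inhibitory Smads did not pass between the chemistries. Id1 differed by -0.02 ± 0.064, Id2 by 0.09 ± 0.064 and Id3 by 0.12 ± 0.068, and Id3 passed without SLAM A (0.24, adjusted p = 0.00277). Smad6 differed by -0.28 ± 0.109 (adjusted p = 0.0847), and passed without SLAM B (-0.42, adjusted p = 0.0269). Smad7 differed by -0.11 ± 0.064 and Tgif1 by -0.08 ± 0.054. With the block 2 of the 8 members and 2458 of all genes (20.1%) passed. Without it 0 of 12218 genes (0%) and no member passed in edgeR, with 1205 genes at an unadjusted p under 0.05 and 168 by DESeq2.

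**Figure D4:**
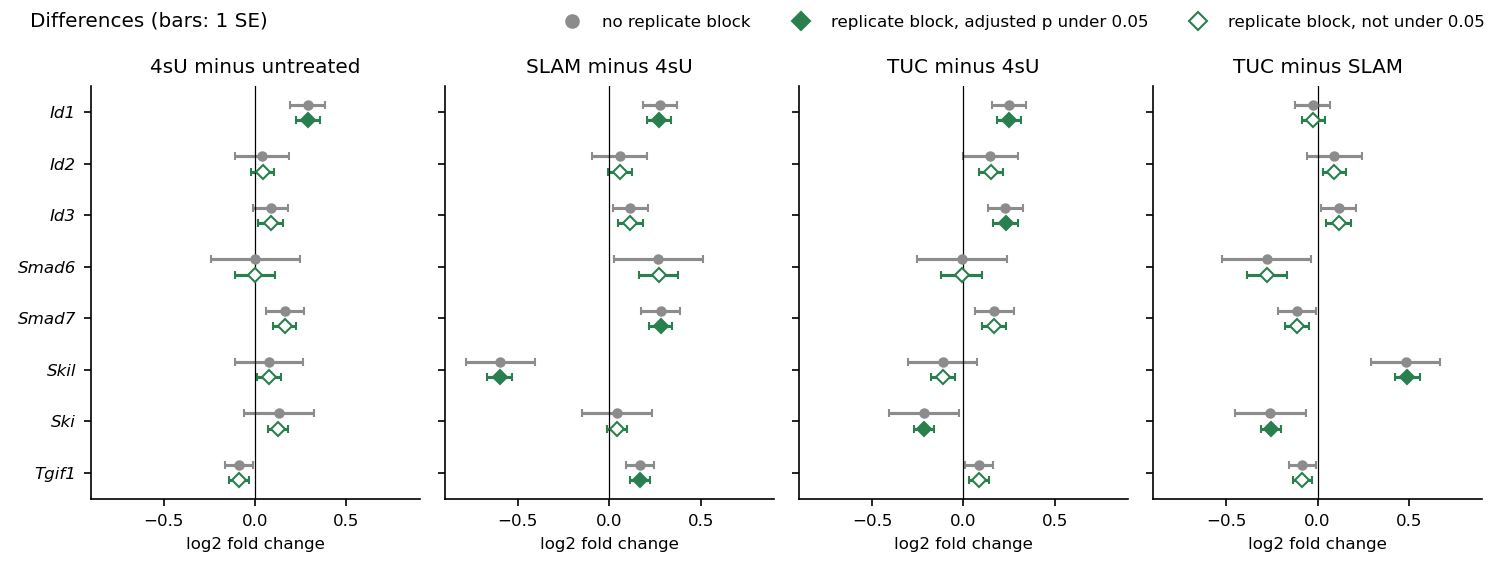
Log2 fold change of each gene in 4 comparisons, with bars of 1 SE; grey circles are the fit without and green diamonds the fit with the replicate block, filled where the adjusted p is under 0.05. Skil stands at -0.60 in SLAM minus 4sU and at 0.49 in TUC minus SLAM, and the blocked fit has the shorter bars throughout.

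The other genes of the pathway were taken from lists of 71 symbols grouped by role, of which 60 had a row in the table and 55 passed the filter. Ligand genes were partly expressed. Of the TGF-beta and activin ligands 5 of 8 passed the filter, Inhba (activin) highest at a mean of 94.8 CPM, and of the BMP ligands only Gdf5 of 8, at 3.20 CPM. All 6 signalling Smads and 11 of 12 receptors passed, with Tgfbr3, a coreceptor, at 159.6 CPM and Bmpr1a, a BMP receptor kinase, at 105.4 CPM.

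High ratios were also found among other targets of the pathway, and lower ones in other roles. The 10 other early target genes with an estimate had a median NTR of 98.6% in the SLAM group, and all 10 were above Ski, from 93.1% for Junb, an AP-1 subunit, to 100% for Ctgf, a matricellular protein gene. Signalling Smads had a median of 93.8%, intracellular regulators of 83.8%, receptors of 79.4% and TGF-beta and activin ligands of 62.4%. Extracellular and membrane inhibitors had the lowest median, 34.4%, from 13.5% for Dcn, the proteoglycan decorin, to 99.8% for Bambi, a membrane pseudoreceptor. The E proteins that Id proteins bind, Tcf3, Tcf4 and Tcf12, had 43.9, 77.6 and 63.7%.

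**Figure D5:**
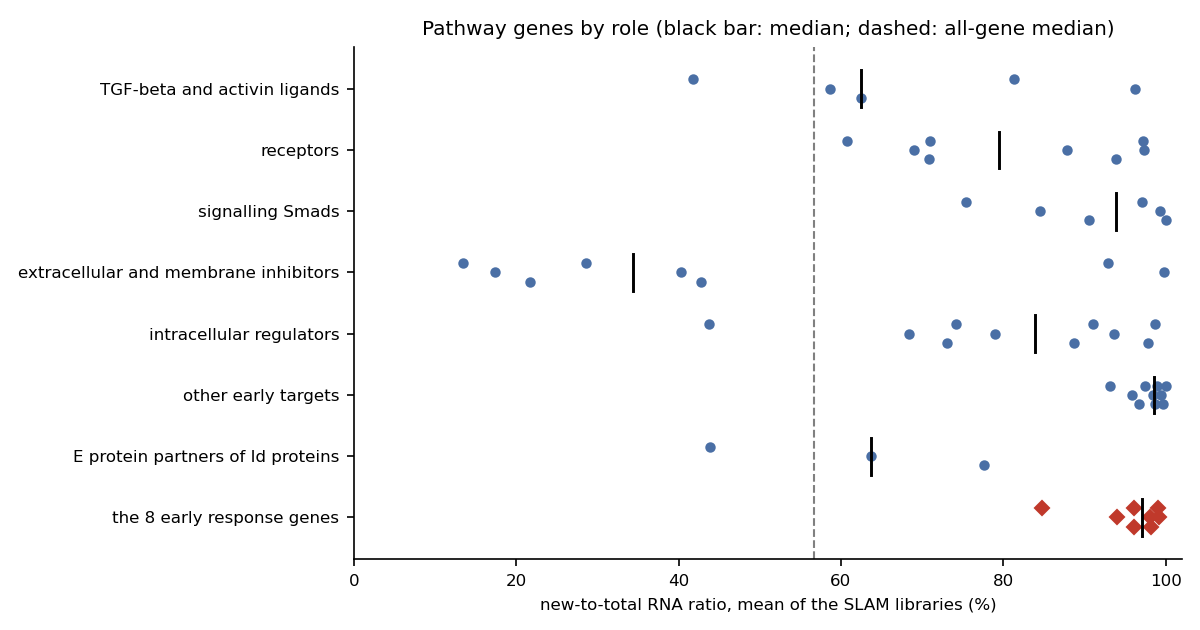
New-to-total RNA ratio (%, mean of the SLAM libraries) of 50 pathway genes by role and, in red, of the 8 members; black bars are medians and the dashed line the all-gene median of 56.6%. The other early targets lie at 93.1% and above, in the range of the members other than Ski, while the inhibitors and E proteins reach far lower.

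None of the 55 pathway genes passed the fit without the block in any comparison. With the block, 14 were higher and 13 lower after SLAM than in 4sU libraries, with a median log2 difference of -0.01; of all genes 41.6% passed, 2443 higher and 2636 lower. The largest difference was that of Eng, a coreceptor at a low level (mean 0.490 CPM), which rose by 1.27 ± 0.339 (adjusted p = 0.00681). Tgfbr1, a TGF-beta receptor kinase, fell by 0.77 ± 0.078 on the log2 scale (adjusted p = 4.2e-06), Inhba by 0.66 ± 0.079 and Bmpr2, a BMP receptor kinase, by 0.57 ± 0.056. Tgfb1, the ligand gene, rose by 0.62 ± 0.069 and Snai1, a transcriptional repressor, by 0.61 ± 0.074. Of the 10 other early targets, 6 were higher and none lower (median 0.25), and of the 6 signalling Smads 1 was higher and 3 lower (median -0.22), with no test of a difference between the lists.

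After TUC, 1 of the 55 was higher and 16 lower than in 4sU libraries, where 25.8% of all genes passed, 1418 higher and 1733 lower. Bmpr2 differed by -0.39 ± 0.056, Tgfbr1 by -0.34 ± 0.076 and Smurf2, a ubiquitin ligase for the pathway, by -0.34 ± 0.062. Between the chemistries 4 of the 55 were higher after TUC and 7 lower, which is close to the 20.1% of all genes that passed. Snai1 (-0.61 ± 0.074) and Tgfb1 (-0.52 ± 0.069) were lower and Tgfbr1 (0.44 ± 0.08) and Inhba (0.42 ± 0.08) higher. With 4sU alone, 3 were higher and 12 lower than in untreated cells, against 19.9% of all genes, 851 higher and 1581 lower. Of the 10 intracellular regulators 6 were lower and none higher. Trim33, a ubiquitin ligase that acts on Smad4, fell by 0.40 ± 0.059 (adjusted p = 0.000167), Zfyve9 (SARA, which presents Smads to receptors) by 0.37 ± 0.069, and Usp15, a deubiquitinase of receptor-activated Smads, by 0.35 ± 0.06.

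Genes with the most similar pattern were sought by Pearson correlation of log2 CPM over the 10 libraries after subtracting each letter's mean, among 8516 named genes with a mean of 10 CPM or more. Id1 was nearest to Ssna1 and H2-D1 (both r = 0.997), Id2 to Fam210b (0.981) and Sdha (0.971), and Id3 to Ufc1 (0.992) and Ndufa11 (0.981). Smad6 was nearest to Faap100 (0.963) and Tprn (0.961), and Smad7 to Klhdc8a and Spout1 (both 0.991). Skil was nearest to Nudcd3 and Ranbp6 (both 0.973), Ski to Ahdc1 (0.953) and Ctbp2 (0.945), and Tgif1 to Prr14 (0.936) and Trip6 (0.902). No member was among the 2 nearest genes of another. Some members still varied together over the 10 libraries. Id1 had r = 0.966 with Smad7, 0.902 with Id3 and 0.802 with Id2, and Id2 had 0.89 with Id3. Smad7 had 0.809 with Id3 and 0.706 with Id2. Smad6 and Skil went opposite ways (r = -0.904), as did Skil and Tgif1 (-0.778) and Smad7 and Skil (-0.724). The remaining pairs were weaker, from -0.616 for Id1 with Skil to the weakest, Id1 with Ski (0.116) and Id2 with Smad6 (0.152). The libraries share groups and letters. Only 1 of the 16 pairs of a member and a nearest gene was also found without subtracting the letter means, Tgif1 with Prr14. The 6 neighbours of the Id genes had NTR between 11.4 and 44.0% in the SLAM group, far below the Id genes themselves. Neighbours of the other members reached higher ratios in that group, from 43.8% for Nudcd3 to 99.06% for Ranbp6, both neighbours of Skil. Tprn, a neighbour of Smad6, and Ahdc1, a neighbour of Ski, had a higher ratio than the member itself.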

How the data were processed

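Genes were measured by RNA-seq in 10 libraries, 2 for each of 5 groups, with groups and letters taken from the sample titles. Reads were handled with cutadapt, Bowtie2 2.3.0 and STAR 2.7.10b, per the submitters' processing notes. For the genome build, annotation, strand setting, counting tool and estimator of new RNA, nothing is given in the sources used here. Per gene, expected counts were deposited unscaled, per the file headers and values, and 7 of the 8 members have counts that are not whole, so reads shared between genes may have been split. A fraction from 0 to 1 was deposited as a posterior mode with quantiles, per the file headers. The headers leave the quantity unnamed, and it was read as NTR because it is near 0 without conversion. Of the values per library, 24 columns were not used.

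Rounded counts were filtered with filterByExpr and given TMM scaling. The test was the quasi-likelihood test of edgeR 4.0.16 under R 4.3.3, with all libraries in a single fit and Benjamini-Hochberg adjustment over 12218 genes and a threshold of 0.05. SE is the log2 fold change over the root of F. NTR was tested with limma 3.58.1 on log2(NTR/(1-NTR)), held within 0.01 to 0.99, over 10202 genes with a mean of 100 counts in the converted libraries. DESeq2 1.42.0 was an alternative, beside library totals, no filter and each library left out. The scripts were tested on simulated data.

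Letters were taken to pair libraries, because A minus B differences correlated across genes between groups (r 0.584 to 0.69 over 10 pairs of groups). The common dispersion fell from 0.0187 to 0.00195 with the letter as a block. No pair of replicates agreed within sampling noise, since chi-square over its degrees of freedom was 38.5 to 78.1.

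The members, lists and tests were chosen with earlier results of these data known. All 8 members are named; at most 6 called pathway genes per comparison are named by size of change, at most 3 per list by level, and 2 nearest genes per member. Junb, Bambi and Gdf5, named from the lists beside these, and the group of genes with NTR of 90% or more were picked after their values were seen.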

Additional observations from a re-analysis of the deposited data

Results flagged for a closer look

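A fraction of new RNA was assigned to 7 of the 8 genes in 4sU libraries that had no chemical conversion, above the level of both uridine libraries. The means of the 4sU libraries were 2.735% for Id1, 3.79% for Id2, 3.4% for Id3, 6.435% for Smad7, 2.26% for Skil, 2.96% for Ski and 2.14% for Tgif1. The uridine means were 1.77, 2.07, 1.70, 3.16, 0.835, 2.01 and 1.09% in the same order. Smad6, at a mean of 4.26% with 4sU and 3.4% with uridine, did not meet this in both libraries (2.87% in 4sU B against 4.91% in uridine A). The same pattern of modes held for 45.1% of all genes, and its cause was not tested.

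The effects of the chemistries differed for the corepressors Skil and Ski, by the direct test of TUC against SLAM with the replicate letter as a block. The log2 fold change was 0.49 for Skil (edgeR, adjusted p = 0.000181) and -0.257 for Ski (adjusted p = 0.00369). Neither passed without the block (adjusted p = 0.459 and 0.779), and 20.1% of all genes passed with it.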

How the results depend on the processing

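The count of members past the threshold was 0 in all 6 comparisons of counts without the letter, by edgeR, by DESeq2, with library totals, with no filter and without any single library. With the replicate block it was 0 for uridine minus untreated, 1 for 4sU minus untreated, 1 for 4sU minus uridine, 4 for SLAM minus 4sU, 3 for TUC minus 4sU and 2 for TUC minus SLAM, and DESeq2 with the block gave the same counts. Leaving out 1 library, with or without the block, gave 0 to 1, 0 to 1, 0 to 5, 0 to 1 and 0 to 3 in the last 5 of these. For NTR the count was 0 to 1, with Smad7 called without SLAM A, where the SLAM group is 1 library.

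Over all genes DESeq2 called 0, 239, 271, 656, 16 and 168 genes in the 6 comparisons without the block, against 0, 20, 31, 42, 0 and 0 by edgeR, and 0, 1900, 1839, 4064, 2402 and 1837 with it, against 1, 2432, 2412, 5079, 3151 and 2458. Library totals gave 22 for SLAM minus 4sU, no filter gave 2 for TUC minus 4sU and 2 for TUC minus SLAM, and a wider range for holding NTR gave 27 for NTR, against 0.

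Of 48 member differences, 22 changed sign under some setting, and none of these sign changes passed the threshold. Smad6, 4sU minus untreated, stood at -0.002 with the block, -0.021 with library totals and -0.003 with no filter. Leaving out 1 library moved uridine minus untreated from -0.02 to 0.032 (Id1), -0.19 to 0.154 (Id2), -0.245 to 0.271 (Smad6), -0.117 to 0.073 (Smad7), -0.14 to 0.177 (Skil), -0.144 to 0.216 (Ski) and -0.06 to 0.001 (Tgif1). It moved 4sU minus untreated from -0.124 to 0.22 (Id2), -0.203 to 0.177 (Smad6), -0.088 to 0.22 (Skil) and -0.046 to 0.286 (Ski), and 4sU minus uridine from -0.067 to 0.202 (Id2), -0.272 to 0.245 (Smad6), -0.116 to 0.215 (Skil) and -0.093 to 0.274 (Ski). For SLAM minus 4sU the ranges were -0.061 to 0.188 (Id2), -0.015 to 0.246 (Id3) and -0.14 to 0.219 (Ski). For TUC minus 4sU they were -0.284 to 0.206 (Smad6) and -0.258 to 0.049 (Skil), and for TUC minus SLAM -0.141 to 0.085 (Id1) and -0.016 to 0.238 (Id3). Where a fit left 1 library in a group, that library was assumed to vary like the others. Smad6, with 148 to 300 counts, had the widest errors.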
